A study of Mus musculus with 15 samples.

Results

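The genes described here encode albumin and 9 other proteins that the liver secretes into plasma to carry lipids, vitamins, hormones and metals or to bind other plasma components. They are Alb, Afp, Gc, Ttr, Rbp4, Serpina6, Serpina7, Ambp, Ahsg and Apoh, taken by gene symbol, and they are 10 of the 21702 protein-coding genes counted. All 10 passed the filter on low counts that left 12172 genes for testing, although Afp did so with 2 to 14 counts per library. Liver RNA was sequenced from 15 female wild-type C57BL/6 mice (C57BL/6N in the study's methods) in 5 groups of 3. All mice had received an AAV8 vector with the TBG promoter, which is that of thyroxine-binding globulin and drives expression in hepatocytes. The vector was given by tail vein injection, either without an insert (AAV8-null) or with mouse p21 cDNA (AAV8-p21). The study states that the mice sequenced at 16 dpc had received it while non-pregnant. The AAV8-null mice were non-pregnant (NP) or at 8 or 16 days post coitum (dpc), and the AAV8-p21 mice were at 8 or 16 dpc, with no NP group. The females were virgins of 8 to 14 weeks of age before mating. The libraries are of whole liver tissue, so more hepatocytes and more RNA per hepatocyte cannot be told apart.

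Albumin is the most abundant protein of plasma and binds fatty acids, bilirubin and many hormones. Afp encodes alpha-fetoprotein, which takes albumin's place in the fetus and is silenced in the liver after birth, and Gc encodes the vitamin D-binding protein. These genes belong to one family and lie close together on the same chromosome. Transthyretin (Ttr) carries thyroid hormone and, by holding retinol-binding protein (Rbp4), retains retinol in the circulation. Corticosteroid-binding globulin (Serpina6) and thyroxine-binding globulin (Serpina7) are serpins that have become hormone carriers. Ambp encodes a precursor that is cut into alpha-1-microglobulin and bikunin, the latter joined to the heavy chains encoded by Itih genes, Ahsg encodes fetuin-A, which keeps calcium phosphate in solution, and Apoh encodes beta-2-glycoprotein I, which binds anionic phospholipids. In pregnancy, plasma volume expands and circulating steroid and thyroid hormones change.

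The family genes are given with the DNA before their transcription start sites because Alb and Afp had the highest and the lowest levels among the 10 genes. On GRCm38 the annotated genes span chr5:89417522-89457898 for Gc (ENSMUSG00000035540, reverse strand), chr5:90460897-90476602 for Alb (ENSMUSG00000029368, forward strand) and chr5:90490737-90508907 for Afp (ENSMUSG00000054932, forward strand). The 250 bases before the RefSeq start (build GRCm38.p6) are written 5′ to 3′ along the transcribed strand, and they come from chr5:90460620-90460869 for Alb, chr5:90490464-90490713 for Afp and chr5:89457899-89458148 for Gc. Capitals mark CCAAT or its reverse complement, the CCAAT box found before many genes.
Alb: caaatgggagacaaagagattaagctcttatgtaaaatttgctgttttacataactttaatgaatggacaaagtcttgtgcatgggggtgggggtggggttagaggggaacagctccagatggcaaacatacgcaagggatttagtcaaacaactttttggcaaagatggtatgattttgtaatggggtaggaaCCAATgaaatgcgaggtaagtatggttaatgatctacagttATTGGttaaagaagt
Afp: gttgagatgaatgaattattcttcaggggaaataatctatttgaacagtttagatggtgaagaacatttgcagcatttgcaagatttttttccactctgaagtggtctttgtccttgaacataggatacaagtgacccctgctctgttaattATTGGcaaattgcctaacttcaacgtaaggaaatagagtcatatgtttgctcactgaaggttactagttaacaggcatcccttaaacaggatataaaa
Gc: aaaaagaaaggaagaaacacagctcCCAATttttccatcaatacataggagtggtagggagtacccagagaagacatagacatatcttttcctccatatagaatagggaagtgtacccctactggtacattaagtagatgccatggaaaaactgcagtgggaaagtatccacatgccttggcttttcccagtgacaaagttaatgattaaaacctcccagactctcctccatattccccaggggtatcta
The first base of a match lay 56 and 15 bases before the start in Alb, 98 in Afp and 225 in Gc. Windows were available for 8 of the 10 genes, with 10 windows in all, as Rbp4 and Serpina7 had a pair each. CCAAT on either strand was in 5 of the 10 windows (those of Alb, Afp, Gc and Ambp and one of Rbp4), compared with 33.8% of the 32851 RefSeq windows of this length. TTATGTAA, the core of the site of PAR bZIP factors such as Dbp, was in the window of Alb alone (0.819% of all windows). Both strands were searched, and the motifs were searched independently, so that matches could overlap. CCAAT was therefore present before both Alb and Afp, which differed most in level among the 10 genes.

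The libraries held 12280709 to 17615185 counts. Cdkn1a, which encodes p21, lay between 3.28 and 127.3 CPM (counts per 1e6 counts of the library, here scaled with TMM factors) in the AAV8-null libraries and between 346.7 and 1663 CPM in the AAV8-p21 libraries, without overlap, and transcripts of the vector and of the endogenous gene cannot be told apart. The 8 hepatocyte markers were detected throughout, with summed levels of 13008 to 24252 CPM. The 4 placental markers had 0 counts in every library. Of 5 fetal liver markers, Dlk1, Hbb-y and Hba-x had at most 3 counts in any library. The others were detected at low levels, with 1 to 23 counts for Igf2 and 2 to 11 for Gpc3. Summed endothelial markers (5 of 5 tested) were 81.2 to 112.7 CPM at 8 dpc and 159.8 to 215.1 CPM at 16 dpc with AAV8-null, against 112.7 to 211.2 CPM in NP mice. Summed stellate cell markers (5 of 5 tested) were 84.6 to 138.0 CPM at 8 dpc and 169.3 to 246.3 CPM at 16 dpc with AAV8-null, without overlap, and 160.6 to 185.3 CPM in NP mice. With AAV8-p21, the hepatocyte sum was 13008 to 13979 CPM at 8 dpc and 16214 to 20005 CPM at 16 dpc, and the endothelial sum 105.8 to 139.8 and 157.7 to 173.2 CPM, both without overlap. Summed blood markers (3 of 3 tested) were 42.1 to 79.5 CPM in NP mice, 74.8 to 87.0 and 80.3 to 131.1 CPM at 8 and 16 dpc with AAV8-null, and 91.4 to 146.1 and 80.4 to 117.1 CPM with AAV8-p21. The part of these cell types in the results below was not tested. The libraries at 8 dpc with AAV8-null were not alike, as the summed level of 5 cell cycle genes was 95.3 and 101.2 CPM in libraries 1 and 2 and 10.9 CPM in library 3.

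The 10 genes together took a larger share of all counts at 16 dpc than at the other stages, and Alb made up most of it. Their summed share of total counts was 13.5% ± 0.748 (SD, n = 3, as for all group values) in NP mice, 11.8% ± 1.13 at 8 dpc and 30.1% ± 2.89 at 16 dpc with AAV8-null, and 15.2% ± 0.836 at 8 dpc and 26.1% ± 1.57 at 16 dpc with AAV8-p21. Without Alb, the other 9 genes took 3.08% ± 0.361, 2.59% ± 0.102 and 4.0% ± 0.956 in the AAV8-null groups and 2.77% ± 0.272 and 4.99% ± 1.10 in the AAV8-p21 groups. Alb had the highest mean share of any gene in the table, 15.8%, ahead of the transferrin gene Trf (2.27%), Apoe (1.41%), mt-Co1 (1.21%) and the complement gene C3 (1.19%), and Ahsg (1.17%) followed at rank 6. Because a library's counts are a fixed total, a larger share for Alb lowers the shares of all other genes, and TMM factors, which hold most genes constant, were 0.682 to 0.839 at 16 dpc and 1.10 to 1.25 in the other groups. Shares and TMM-scaled CPM are therefore both given.

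**Figure D1:**
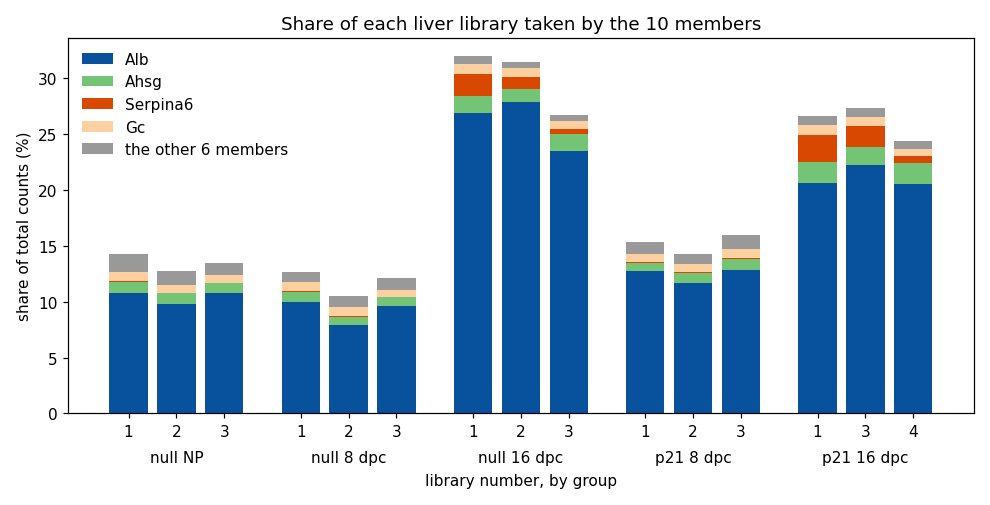
Share of total counts (y axis, percent) taken by Alb, Ahsg, Serpina6, Gc and the other 6 genes in each of the 15 libraries (x axis, library number by group), as stacked bars. The 6 libraries of 16 dpc mice stand at 24.3% to 32.0% and the other 9 at 10.5% to 15.9%, and Serpina6 is visible as a band only at 16 dpc.

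In the AAV8-null mice, 4 of the 10 genes changed between NP and 16 dpc. Alb, Serpina6 and Ahsg rose and Ttr fell (edgeR quasi-likelihood test, Benjamini-Hochberg adjusted p under 0.05). Called refers throughout to this test with TMM factors, unless another fit or scale is named. Of all genes tested, 6.52% were called in this comparison, 3.71% as higher and 2.82% as lower at 16 dpc. The median log2 fold change was 0.20 over the 10 genes and −0.03 over all genes tested. The values of 5 of the 10 genes did not overlap between these groups, against 24.6% of all genes tested. Between 8 and 16 dpc, Alb, Serpina6 and Ahsg rose in both the AAV8-null and the AAV8-p21 mice, and none of the 10 was called lower. Without a call, Ttr was lower without overlap in both virus groups, as was Serpina7 with AAV8-p21. In that comparison 6.87% of all genes were called with AAV8-null (3.16% as higher), and 3.32% with AAV8-p21 (2.09% as higher). The values did not overlap for 5 genes with AAV8-null (25.4% of all genes) and 7 with AAV8-p21 (22.9%). The AAV8-null comparisons with 16 dpc share the 16 dpc libraries.

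Alb, the most abundant of the transcripts, rose at 16 dpc in both virus groups. It was at 94835, 78215 and 92153 CPM in NP mice, 83768, 65672 and 78117 CPM at 8 dpc and 377089, 408290 and 284421 CPM at 16 dpc with AAV8-null. The AAV8-p21 mice had 101595, 96953 and 116896 CPM at 8 dpc and 264861, 283152 and 244552 CPM at 16 dpc. All 16 dpc libraries were above all others. The log2 fold change was 2.01 (SE 0.25, adjusted p = 0.000351) from NP to 16 dpc, 2.23 (SE 0.25, adjusted p = 0.000124) from 8 to 16 dpc with AAV8-null and 1.33 (SE 0.24, adjusted p = 0.00742) from 8 to 16 dpc with AAV8-p21 (edgeR). As a share of counts, Alb was 10.4% ± 0.580, 9.17% ± 1.11 and 26.1% ± 2.30 in the NP, 8 dpc and 16 dpc AAV8-null groups and 12.4% ± 0.642 and 21.1% ± 0.932 in the AAV8-p21 groups, so that the NP to 16 dpc ratio was 2.50 on this scale and 4.03 on the TMM scale. The exact permutation test of the shares gave p = 0.1 (two-sided), the smallest value that 3 mice against 3 allow.

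**Figure D2:**
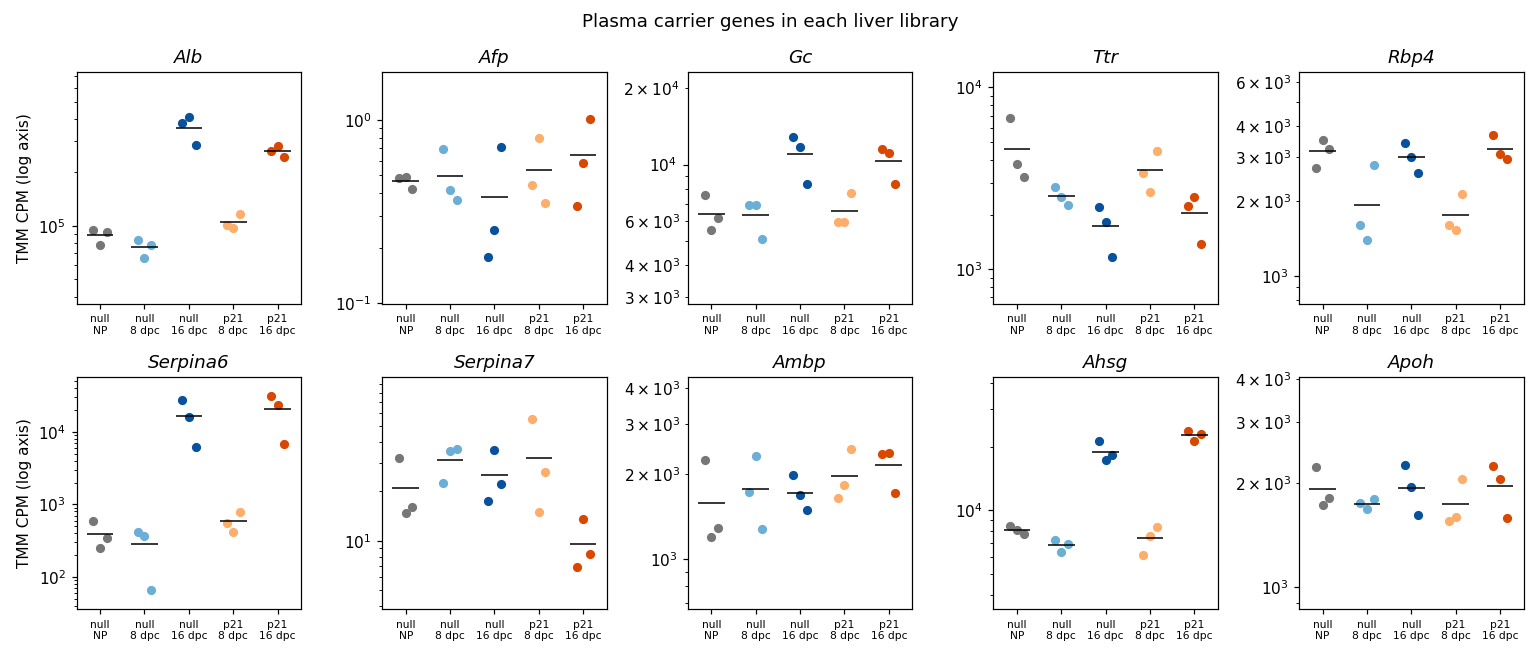
TMM-scaled CPM (y axis, log scale, a separate range in each panel) of the 10 genes in every library, by group (x axis), with 3 points per group and a line at the mean. Alb, Serpina6 and Ahsg stand higher in every 16 dpc library than in every other library, and Afp stays at about 1 CPM or below throughout.

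The family neighbours did not follow Alb to the same extent. Gc was at 5495 to 7577 CPM in NP mice, 5075 to 6947 at 8 dpc and 8341 to 12902 at 16 dpc with AAV8-null, and at 5923 to 7703 and 8376 to 11566 CPM in the AAV8-p21 groups. Every 16 dpc library was above every NP and 8 dpc library, but the log2 fold changes of 0.78 (SE 0.24, adjusted p = 0.0759), 0.80 (SE 0.24, adjusted p = 0.0627) and 0.66 (SE 0.24, adjusted p = 0.169) in the same 3 comparisons did not pass the test in edgeR. DESeq2 on all 15 libraries called all 3 (adjusted p = 0.00981, 0.00837 and 0.0485). As a share of counts Gc was 0.754% to 0.825% in all 5 groups.

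Afp had 7, 8 and 6 counts in NP mice, 12, 7 and 7 at 8 dpc and 2, 3 and 8 at 16 dpc with AAV8-null, and 9, 14 and 5 at 8 dpc and 4, 8 and 14 at 16 dpc with AAV8-p21. The groups overlapped, no comparison passed the test (smallest unadjusted p = 0.203), and changes of a few counts could not be detected at this depth. Afm, the fourth gene of the cluster, encodes afamin, a vitamin E carrier, and was at 223.7 ± 51.0, 260.0 ± 84.3 and 371.8 ± 116 CPM in the AAV8-null groups and 337.2 ± 20.7 and 424.0 ± 153 CPM in the AAV8-p21 groups, with no call. Of the 4 family genes, edgeR with TMM factors called only Alb in these comparisons.

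Serpina6 showed the largest change of the 10 genes. Its CPM were 582.6, 255.4 and 340.2 in NP mice, 419.7, 371.1 and 65.6 at 8 dpc and 27140, 15811 and 6192 at 16 dpc with AAV8-null. In AAV8-p21 mice they were 551.8, 423.7 and 791.3 at 8 dpc and 31252, 23388 and 6676 at 16 dpc. The 16 dpc groups stood above all others without overlap, NP and 8 dpc mice overlapped, and the highest 16 dpc library was 4.38 times the lowest with AAV8-null and 4.68 times with AAV8-p21. The log2 fold change was 5.38 (SE 0.80, adjusted p = 0.00116, a 41.7-fold difference) from NP to 16 dpc, 5.84 (SE 0.82, adjusted p = 0.000878) from 8 to 16 dpc with AAV8-null and 5.12 (SE 0.79, adjusted p = 0.00243) with AAV8-p21 (edgeR). Serpina6 took 0.0459% ± 0.0180 of the counts of NP mice and 1.18% ± 0.719 at 16 dpc with AAV8-null, and 1.61% ± 0.958 at 16 dpc with AAV8-p21. The low library at 8 dpc with AAV8-null was library 3, which also had the low level of cell cycle genes.

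The corticosteroid that Serpina6 carries acts through the glucocorticoid receptor Nr3c1 and is regenerated in liver by Hsd11b1. Of 4 genes of corticosteroid handling, Hsd11b1 rose, from 667.7 ± 96.2 CPM in NP mice to 1799 ± 325 CPM at 16 dpc (log2 fold change 1.43, SE 0.21, adjusted p = 0.000876), and by 1.78 and 1.0 on the log2 scale between 8 and 16 dpc with AAV8-null and AAV8-p21 (adjusted p = 0.000210 and 0.0151). The call with AAV8-p21 was lost with total counts (0.43, adjusted p = 0.0679), in a fit of the compared groups (adjusted p = 0.0569) and without 8 dpc library 2 (adjusted p = 0.0795) or the 16 dpc libraries numbered 1 (0.0589) or 3 (0.0612). Srd5a1, a steroid reductase, fell by 1.70 on the log2 scale between 8 and 16 dpc with AAV8-null (adjusted p = 0.0464) and was not called in the other comparisons. That call was lost in a fit of the compared groups (adjusted p = 0.0908) and without 8 dpc library 1 (0.144) or 2 (0.154) or 16 dpc library 2 (0.177) or 3 (0.145). Nr3c1 and the bile acid and steroid reductase gene Akr1d1 were not called.

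The carriers of thyroid hormone did not move with Serpina6. Ttr was at 6762, 3801 and 3223 CPM in NP mice, 2823, 2501 and 2248 at 8 dpc and 2197, 1822 and 1163 at 16 dpc with AAV8-null, and at 3397, 2654 and 4465 and then 2214, 2510 and 1381 CPM in the AAV8-p21 groups. Each later AAV8-null group lay wholly below the earlier one, and NP library 1 was the highest of all. The fall from NP to 16 dpc was called (log2 fold change −1.41, SE 0.33, adjusted p = 0.0214, edgeR). That call was lost without NP library 1 (−1.02, adjusted p = 0.0740), without 16 dpc library 2 (−1.45, adjusted p = 0.0636) or library 3 (−1.19, adjusted p = 0.0829), and in a fit of these 2 groups alone (adjusted p = 0.0789). The differences of −0.86 (SE 0.33, adjusted p = 0.558) from NP to 8 dpc, −0.55 (SE 0.33, adjusted p = 0.350) from 8 to 16 dpc with AAV8-null and −0.78 (SE 0.33, adjusted p = 0.243) with AAV8-p21 were not called.

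Serpina7 was a low transcript, at 31.9, 14.7 and 16.01 CPM in NP mice, 22.4, 35.2 and 36.1 at 8 dpc and 17.5, 35.9 and 22.3 at 16 dpc with AAV8-null. The AAV8-p21 mice had 55.3, 15.01 and 26.3 CPM at 8 dpc and 6.90, 13.5 and 8.30 at 16 dpc, the last group lying below every other library. The log2 fold change from 8 to 16 dpc was −1.75 with AAV8-p21 (SE 0.46, adjusted p = 0.0526) and −0.31 with AAV8-null (SE 0.44, adjusted p = 0.739), and that from NP to 16 dpc was 0.28 (SE 0.44, adjusted p = 0.773), none of them called by edgeR with TMM factors. The difference in AAV8-p21 mice was close to the threshold and was called by DESeq2 (adjusted p = 0.00462 on all 15 libraries) and by edgeR with upper-quartile factors (0.0413), with total counts (0.00434), with total counts less Alb (0.00998), with no filter on low counts (0.0394) and without 8 dpc library 2 (0.0332). Among 5 other genes of thyroid hormone handling, the transporter Slc16a10 fell from NP to 16 dpc (log2 fold change −1.52, SE 0.23, adjusted p = 0.00136) and from 8 to 16 dpc with AAV8-null (−0.92, adjusted p = 0.0281). The latter call was lost in a fit of the compared groups (adjusted p = 0.0581) and without 8 dpc library 1 (0.0688) or 2 (0.126) or 16 dpc library 1 (0.0765) or 3 (0.0943). The receptor gene Thra was at −1.05 from 8 to 16 dpc with AAV8-p21 (adjusted p = 0.0492), a call at the threshold that was lost with DESeq2 size factors (adjusted p = 0.0527), with no filter on low counts (0.0537), in the fits of the compared groups (0.118 with edgeR) and without 8 dpc library 1 (0.261) or 2 (0.0828) or the 16 dpc libraries numbered 1 (0.153) or 3 (0.170). Dio1, Thrb and Thrsp were not called.

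Rbp4 was at 2725, 3529 and 3236 CPM in NP mice, 1593, 1387 and 2799 at 8 dpc and 3408, 3007 and 2589 at 16 dpc with AAV8-null, and at 1600, 1533 and 2141 and then 3677, 3077 and 2938 CPM with AAV8-p21. At 8 dpc with AAV8-null, library 3 lay apart from the other 2 and within the range of the NP mice. The log2 fold changes of −0.08 (SE 0.26, adjusted p = 0.909) from NP to 16 dpc, 0.64 (SE 0.26, adjusted p = 0.160) from 8 to 16 dpc with AAV8-null and 0.88 (SE 0.26, adjusted p = 0.0886) with AAV8-p21 were not called by edgeR with TMM factors. DESeq2 called the last of these (adjusted p = 0.0129 on all 15 libraries and 0.00300 on the compared groups). Without library 3 of the 8 dpc group, the 8 to 16 dpc difference was 1.01 and was called (adjusted p = 0.0180). As a share of counts Rbp4 was 0.376% in NP mice and 0.221% at 16 dpc, without overlap (exact permutation p = 0.1, two-sided), and with total counts its log2 fold change from NP to 16 dpc was −0.77 and called (adjusted p = 0.0218), near the median of all genes on that scale (−0.70). From NP to 8 dpc the log2 fold change was −0.72 (SE 0.26, adjusted p = 0.512). Of 8 genes of retinol handling, Bco1, which cleaves beta-carotene, rose in all 3 comparisons (log2 fold change 2.35, 2.21 and 2.29, adjusted p = 0.000230, 0.000338 and 0.000280). Lrat, which esterifies retinol for storage and marks stellate cells, fell from NP to 16 dpc (−1.41, adjusted p = 0.0279), a call lost without NP library 1 (adjusted p = 0.0710), 2 (0.0592) or 3 (0.0596) or 16 dpc library 1 (0.0782) or 2 (0.106). The stellate marker Dcn lay the other way, at 112.9 to 126.7 CPM in NP mice and 136.5 to 184.9 CPM at 16 dpc. Neither of the 2 vitamin D handling genes that could be tested, of 6 listed, was called.

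Ahsg, like Alb, rose in both virus groups. It was at 8398, 8077 and 7686 CPM in NP mice, 7249, 6360 and 6902 at 8 dpc and 21251, 17269 and 18293 at 16 dpc with AAV8-null, and at 6149, 7579 and 8368 and then 23647, 21286 and 22853 CPM with AAV8-p21. All 16 dpc libraries were above all others. The log2 fold change was 1.23 (SE 0.20, adjusted p = 0.00195) from NP to 16 dpc, 1.47 (SE 0.20, adjusted p = 0.000682) from 8 to 16 dpc with AAV8-null and 1.62 (SE 0.20, adjusted p = 0.000428) with AAV8-p21 (edgeR). The share of counts was 0.953% ± 0.0562 in NP mice and 1.40% ± 0.194 at 16 dpc with AAV8-null.

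Ambp and Apoh did not differ detectably with stage on the TMM scale. Ambp lay between 1198 and 2437 CPM and Apoh between 1558 and 2249 CPM over all libraries, with overlap between the groups of all 3 comparisons. The log2 fold changes of Ambp were 0.13, −0.04 and 0.12 (SE 0.29 each) and those of Apoh 0.01, 0.15 and 0.18 (SE 0.21 each), with adjusted p between 0.716 and 0.981. On shares of counts both were lower at 16 dpc in every comparison and did not overlap, with Apoh at 0.227% ± 0.0227 in NP mice and 0.142% ± 0.0158 at 16 dpc.

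The direction of these small differences depended on the scale. When only total counts were used, the median of all genes tested moved to −0.70 for NP to 16 dpc, −0.70 for 8 to 16 dpc with AAV8-null and −0.59 with AAV8-p21. On that scale Apoh stood at −0.67, −0.56 and −0.39, near this median, and Ambp at −0.55, −0.76 and −0.44. Both were called from 8 to 16 dpc with AAV8-null (adjusted p = 0.0160 for Apoh and 0.0234 for Ambp, edgeR). Apoh was also called from NP to 16 dpc (adjusted p = 0.00773). Alb (1.32, 1.51 and 0.76), Serpina6 and Ahsg stayed above 0 and were called on both scales, and Ttr stood at −2.10, −1.28 and −1.35 and was called in all 3 comparisons.

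**Figure D3:**
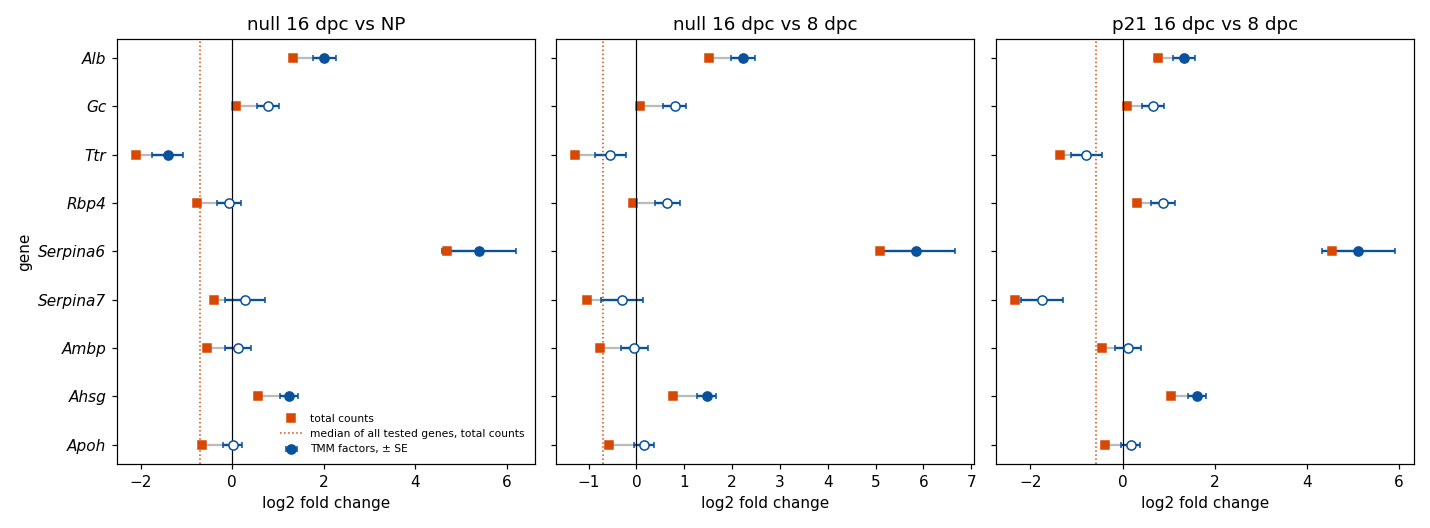
Log2 fold changes (x axis) of 9 genes (y axis, Afp left out for its low counts) in the 3 stage comparisons with TMM factors (circles, ± SE, filled where adjusted p was under 0.05) and with total counts alone (squares). The dotted line is the median of all tested genes with total counts, at −0.70, −0.70 and −0.59, and Apoh and Ambp lie close to it while Alb, Serpina6 and Ahsg lie to the right of 0 on both scales.

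Ratios between transcripts of one library do not depend on scaling. Ttr per Alb was 10.4-fold lower at 16 dpc than in NP mice and 7.03-fold (AAV8-null) and 4.37-fold (AAV8-p21) lower than at 8 dpc. Rbp4 per Ttr, the transcripts of partners in one plasma complex, was 2.48-fold higher at 16 dpc than in NP mice, and 2.45-fold and 3.21-fold higher than at 8 dpc. Serpina7 per Serpina6 was 30.4-fold, 80.9-fold and 90.6-fold lower in the same comparisons. These folds rested on single libraries, as the first was 18.5-fold without 16 dpc library 1, the second 40.9-fold without 8 dpc library 3, 131-fold without 8 dpc library 1 and 49.2-fold without 16 dpc library 1, and the third 57.8-fold or 137-fold without the 16 dpc library numbered 1 or 4. Gc per Alb was 2.35-fold, 2.70-fold and 1.59-fold lower. The groups did not overlap in any of these, and each had p = 0.1, the smallest the exact permutation test allows (two-sided), or 0.2 after adjustment over 36 ratio comparisons.

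**Figure D4:**
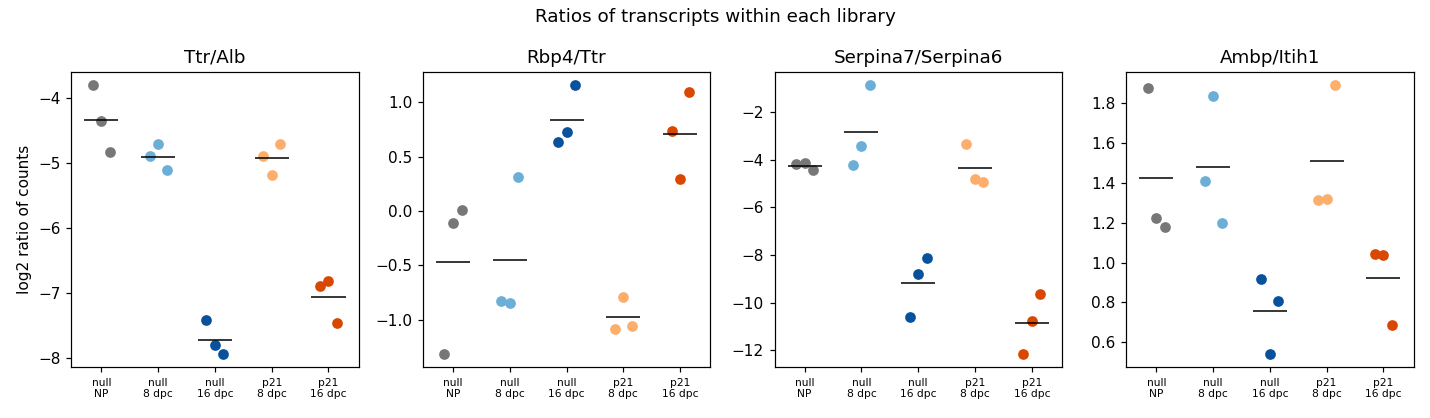
Log2 ratios of counts (y axis) for 4 pairs of genes in each library, by group (x axis), with 3 points per group and a line at the mean. Ttr/Alb, Serpina7/Serpina6 and Ambp/Itih1 are lower, and Rbp4/Ttr is higher, at 16 dpc than at 8 dpc or in NP mice of the same virus.

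The order of the levels, compared per transcript length as TPM (transcripts per 1e6 transcripts), also shifted. In NP mice Alb (110045 ± 6696 TPM) was followed by Ttr (11077 ± 3410), Ahsg (10733 ± 969) and Gc (10056 ± 561), which overlapped with each other. Rbp4 (6972 ± 1598) came next and overlapped with Ttr (highest Rbp4 8441 TPM, lowest Ttr 8127 TPM). Apoh (3503 ± 109) and Ambp (3194 ± 806) followed, overlapping with each other, and then Serpina6 (634.3 ± 203), Serpina7 (24.2 ± 8.35) and Afp (0.404 ± 0.0528). At 16 dpc with AAV8-null, Alb (274681 ± 24910 TPM) was followed by Serpina6 (16320 ± 9570), Ahsg (15711 ± 1935) and Gc (10702 ± 1329), where the range of Serpina6 spanned those of the other 2. Rbp4 (4048 ± 253) followed, then Ttr (2606 ± 573), Ambp (2207 ± 172) and Apoh (2200 ± 181), which overlapped, then Serpina7 (18.7 ± 6.51) and Afp. Serpina6 thus went from rank 8 to rank 2 and Ttr from rank 2 to rank 6. The same ranks 2 and 6 held at 16 dpc with AAV8-p21. At 8 dpc Gc and Ahsg were at ranks 2 and 3 in both virus groups, with overlapping values, and Serpina6 was at rank 8.

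From NP to 8 dpc none of the 10 genes was called, nor was any other gene tested (0% called by edgeR, with 803 genes at an unadjusted p under 0.05). DESeq2 on all 15 libraries called 73 genes, none of the 10 among them. Ttr and Ahsg were lower in every 8 dpc library than in every NP library, 2 of 10 genes against 10.2% of all genes without overlap. The log2 fold change of Ahsg was −0.24 (SE 0.20, adjusted p = 1.0) and that of Alb −0.22 (SE 0.24, adjusted p = 1.0). Leaving out library 3 of the 8 dpc group raised the number of genes called from 0 to 92, again with none of the 10.

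AAV8-p21 was compared with AAV8-null at each stage. At 16 dpc, 0.0739% of all genes and none of the 10 were called (1189 genes at an unadjusted p under 0.05). DESeq2 called 135 genes at that stage, both on all 15 libraries and on the compared groups. At 8 dpc 0.0246% of all genes and none of the 10 were called (631 genes at an unadjusted p under 0.05). DESeq2 called 29 there on all 15 libraries and 84 on the compared groups. Leaving out 1 library gave 3 to 35 edgeR calls at 16 dpc and 2 to 38 at 8 dpc. Values did not overlap for 3 of the 10 at 16 dpc (13.7% of all genes) and for 2 at 8 dpc (10%). At 16 dpc Alb was lower with AAV8-p21 in every library (log2 fold change −0.43, SE 0.24, adjusted p = 0.582), Serpina7 was lower (−1.40, SE 0.46, adjusted p = 0.312) and Ahsg was higher (0.25, SE 0.20, adjusted p = 0.702). DESeq2 fitted to these 2 groups alone called Serpina7 (adjusted p = 0.0244) but not when fitted to all 15 libraries. At 8 dpc Alb was higher with AAV8-p21 in every library (0.47, SE 0.24, adjusted p = 1.0), as was Serpina6 (1.05, SE 0.67, adjusted p = 1.0). At that stage the summed hepatocyte markers were lower with AAV8-p21 (13008 to 13979 CPM) than with AAV8-null (15047 to 20525 CPM). The summed stellate markers were higher (143.6 to 215.3 against 84.6 to 138.0 CPM), both sums without overlap. Single hepatocyte markers differed in direction. Cyp2e1 (3525 to 4617 against 5525 to 6810 CPM) and Hnf4a (438.5 to 530.4 against 622.1 to 709.4 CPM) were lower with AAV8-p21. Glul was higher (766.7 to 797.1 against 621.3 to 630.6 CPM), and Cps1, Ass1, Arg1, Pck1 and Tat overlapped. The part of these cell types in the differences was not tested. The interaction of virus and stage was called for 0% of all genes (374 at an unadjusted p under 0.05, with 0 called by DESeq2 on all 15 libraries and 14 on the compared groups, none of the 10 among them). It was −0.90 (SE 0.34, unadjusted p = 0.0178) for Alb and −1.44 (SE 0.63, unadjusted p = 0.0380) for Serpina7, with an adjusted p of 1.0 for both.

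Other plasma carriers of the liver were examined for comparison. Of 12 listed, 11 were tested, and Shbg, which is not a liver product in adult mice, was left out at 0 to 0.138 CPM. From NP to 16 dpc 6 of 11 rose and none fell (3.71% of all genes were called higher), namely Trf, which carries iron, Hpx, which binds haem, the copper protein Cp, the selenium carrier Selenop, Fetub and the kininogen gene Kng1. Their median log2 fold change was 1.12. Cp rose most, from 998.6 ± 132 CPM to 7688 ± 1804 CPM (log2 fold change 2.94, SE 0.23, adjusted p = 5.11e-06), and Trf from 12510 ± 1802 to 36388 ± 12133 CPM (1.54, SE 0.31, adjusted p = 0.00931). The calls of Fetub, Kng1 and Selenop in this comparison were each lost without NP library 3 (adjusted p = 0.107, 0.0648 and 0.0504), while no alternative lost those of Trf, Hpx and Cp. From 8 to 16 dpc 5 of 11 rose with AAV8-null and 6 of 11 with AAV8-p21, and none was called lower (3.16% and 2.09% of all genes were called higher). These counts depended on single libraries, as from NP to 16 dpc 3 were called without NP library 3 (Trf, Hpx and Cp) and 7 without NP library 1. From 8 to 16 dpc with AAV8-null, leaving out any 1 library gave 2 to 4 (2 without 8 dpc library 1, Cp and Fetub). With AAV8-p21 the count was 1 (Cp) without 8 dpc library 2 or the 16 dpc library numbered 3, 2 without the library numbered 1 of either group, 4 without the 16 dpc library numbered 4 and 7 without 8 dpc library 3. With total counts 4, 3 and 2 of 11 rose in these comparisons (1.91%, 1.56% and 1.47% of all genes were called higher on that scale), and Orm2 fell from 8 to 16 dpc with AAV8-null (51.9% called lower). The median log2 fold change of the list was then 0.46, −0.01 and 0.45, where that of all genes was −0.70, −0.70 and −0.59.

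Of the genes of the heavy chains joined to bikunin, Itih1 and Itih3 rose from NP to 16 dpc and Itih2 did not pass the test (adjusted p = 0.0702), while Ambp was not called. The inter-alpha-trypsin inhibitor heavy chain genes Itih1, Itih2, Itih3 and Itih4 encode proteins of the extracellular matrix and plasma, Itih4 not being joined to bikunin. With Itih4, 3 of 4 rose from NP to 16 dpc and 4 of 4 from 8 to 16 dpc in both virus groups, where 3.71%, 3.16% and 2.09% of all genes were called higher. With total counts 2 of 4 (Itih3 and Itih4) rose in each comparison, against 1.91%, 1.56% and 1.47% of all genes. Itih3 and Itih4 alone were called from NP to 16 dpc without NP library 2, from 8 to 16 dpc with AAV8-null without 8 dpc library 1 or 2 or 16 dpc library 2, and with AAV8-p21 without 8 dpc library 1 or 2 or the 16 dpc library numbered 4. Itih4 was at 1255 ± 169 CPM in NP mice, 2479 ± 544 at 8 dpc and 14767 ± 5477 at 16 dpc with AAV8-null (log2 fold change from NP to 16 dpc 3.56, SE 0.29, adjusted p = 6.65e-06). Itih3 rose by 1.78 (SE 0.24, adjusted p = 0.000526). Itih1 rose by 0.85 (SE 0.17, adjusted p = 0.00947), a call lost without NP library 2 (adjusted p = 0.0548), in a fit of the compared groups (0.0781), with total counts (0.359) and with total counts less Alb (0.0520), and Ambp per Itih1 was 1.59-fold lower at 16 dpc than in NP mice, without overlap (exact p = 0.1, two-sided).

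**Figure D5:**
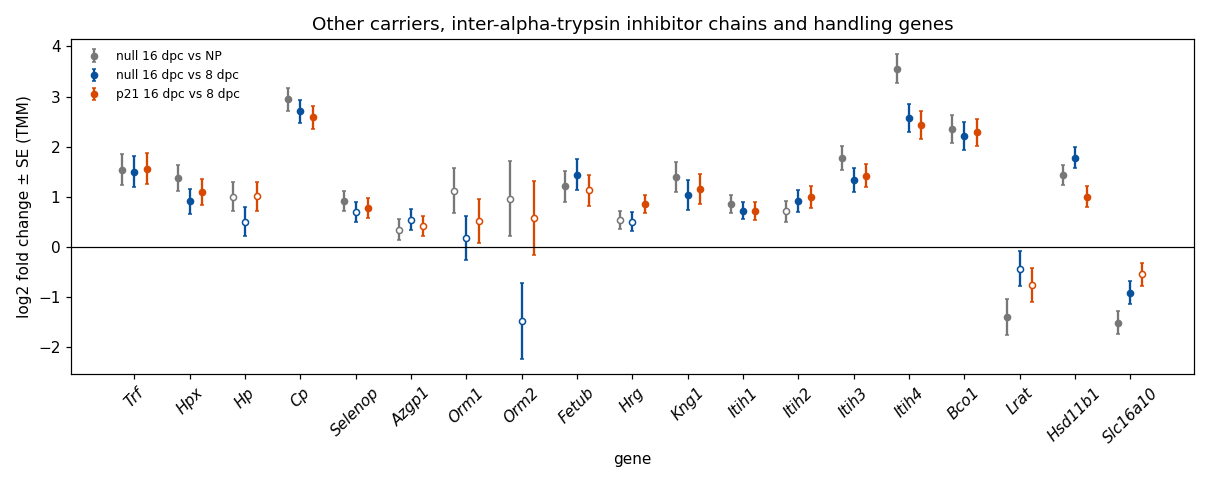
Log2 fold changes with TMM factors (y axis, ± SE) of 11 other carriers, the 4 Itih genes and 4 genes of retinol, corticosteroid and thyroid hormone handling (x axis) in the 3 stage comparisons, filled where adjusted p was under 0.05. Itih4 (3.56) and Cp (2.94) rose most, and Lrat and Slc16a10 lie below 0.

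Genes that regulate or clear these proteins were also examined. None of 13 liver transcription factor genes was called in the 3 stage comparisons, including Hnf4a, Cebpa and Dbp, and Zhx2 and Zbtb20, which are known to hold Afp low after birth. Foxa3 had a log2 fold change of 1.34 from NP to 16 dpc (SE 0.42, adjusted p = 0.0784). Dbp, a clock output gene that varied widely among mice, was at 50.0 ± 40.9 CPM in NP mice and 4.81 ± 5.72 CPM at 16 dpc with AAV8-null (−3.37, SE 1.35, adjusted p = 0.167), with overlap, and at 21.2 ± 34.7 and 84.2 ± 34.1 CPM at 8 and 16 dpc with AAV8-p21. None of 5 genes of albumin uptake and recycling, including the neonatal Fc receptor genes Fcgrt and B2m, was called. With total counts, 48.6%, 51.9% and 34% of all genes were called lower from NP to 16 dpc and from 8 to 16 dpc with AAV8-null and AAV8-p21. In the same order, 6, 6 and 4 of 13 transcription factor genes and 5, 1 and 0 of 5 uptake genes were called lower on that scale, as were 3, 5 and 5 of 8 genes of retinol handling, 2, 2 and 1 of 2 of vitamin D handling, 3, 3 and 2 of 5 of thyroid hormone handling and 2, 3 and 2 of 4 of corticosteroid handling. Foxa1 was also called lower from 8 to 16 dpc with AAV8-null by upper-quartile factors.

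Across all 15 libraries the genes whose log2 CPM were most like those of Alb were Dnah11 (Pearson r = 0.975), Slc6a9 (0.969), Slc24a3 (0.969), Cp (0.967) and the prothrombin gene F2 (0.967), given as a description since the libraries share 5 groups. Among the 10 genes, Alb was closest to Serpina6 (0.949), Ahsg (0.937) and Gc (0.891). Serpina6, examined in the same way after its values had been seen, was most like Spp2 (0.983), Ghr (0.977), Asgr2 (0.977), Asgr1 (0.976) and Trf (0.973). The genes most like Afp (Pld1, Rfwd3, Mfsd8, Tcp11l1 and Zfp426, r = 0.757 to 0.791) rest on at most 14 counts per library of Afp, too few to read a pattern from.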

How the data were processed

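RNA-seq libraries (stranded mRNA kit, single-end reads) were made from 15 livers, with 3 separate mice in each of 5 groups. The deposited table holds raw counts of uniquely mapped reads per protein-coding gene, for which the authors used cutadapt 1.14 (trimming), HISAT2 2.1.0 (alignment to mm10) and HTSeq-count 0.12.4. Versions are from the submitters' processing notes. Strand setting and treatment of overlapping genes are not given in the sources used here. Groups come from the sample labels. The AAV8-p21 libraries at 16 dpc carry numbers 1, 3 and 4 in the table and serve as unnumbered replicates.

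Genes were tested with edgeR 4.0.16 under R 4.3.3 by its quasi-likelihood F-test (TMM factors, filterByExpr with a minimum count of 10, one model of 15 libraries with 10 residual degrees of freedom, Benjamini-Hochberg adjustment over 12172 genes). Called means an adjusted p under 0.05. SE is the absolute log2 fold change divided by the square root of F. In simulated counts for AAV8-null 16 dpc against NP (11981 genes), 19% of genes changed 2-fold and 87% of those changed 4-fold were recovered. TPM used union exon lengths of GENCODE M21 (GRCm38), found for 21665 genes, correlations used log2 CPM with a pseudocount of 0.5, and ratios and shares were tested by exact two-sided permutation. Sequences are from RefSeq. The 10 genes and the lists of context and marker genes were chosen with earlier results of these data known, so no list supports a direction independently. Genes named are all 10 members, called genes of the lists (and the uncalled ones needed to complete a list), the 5 genes most correlated with Alb and Afp (and with Serpina6, added after its values were seen), and the 5 with the highest mean share. Some marker genes and some uncalled genes of the transcription factor and uptake lists are also named. Same-numbered libraries are different mice, and their deviations from group means correlated at −0.576 to 0.472, so the numbers were not taken as pairs. Alternatives were other scalings, filters, DESeq2 1.42.0, fits of the compared groups, a replicate block, a fold threshold and leaving out each library, and those of the list genes and ratios were added after seeing the data. Some genes of the pathway lists are not reported here.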

Additional observations from a re-analysis of the deposited data

Results flagged for a closer look

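Alb differed between AAV8-p21 and AAV8-null mice in opposite directions at the 2 stages. Neither difference was called in edgeR (log2 fold change 0.47 at 8 dpc and −0.43 at 16 dpc). At 8 dpc all 3 AAV8-p21 libraries were above all 3 AAV8-null libraries, at 12.4% ± 0.642 of counts against 9.17% ± 1.11 (SD, n = 3). At 16 dpc all 3 were below, at 21.1% ± 0.932 against 26.1% ± 2.30. Of all genes tested, 10% did not overlap between the virus groups at 8 dpc and 13.7% at 16 dpc. The log2 interaction in edgeR was −0.90 (SE 0.34), with an unadjusted p of 0.0178 and an adjusted p of 1.0, so it did not pass the test over all genes. Alb was looked at because its values had been seen to differ in this way. The difference between stages was −8.23 percentage points of the share.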

How the results depend on the processing

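Alb, Serpina6 and Ahsg remained called in the 3 stage comparisons under every alternative run (highest adjusted p 0.0460, for Alb with AAV8-p21), and 0 of the 10 genes were called in the other comparisons except where stated. With total counts alone, 6 genes were called from 8 to 16 dpc with AAV8-null and 5 with AAV8-p21, and 5 with AAV8-p21 when Alb was also left out of the total, settings under which the median of all genes also moved below 0. For 8 to 16 dpc with AAV8-p21, DESeq2 called 6 on all 15 libraries and 5 on the compared groups, and it called 1 (Serpina7) for AAV8-p21 against AAV8-null at 16 dpc on the compared groups, and the cause was not tested. Rbp4 was also called from NP to 16 dpc with total counts (−0.77). Directions that turned were all of differences that edgeR with TMM factors did not call. From NP to 16 dpc with total counts, Serpina7 was at −0.40, Ambp at −0.55 and Apoh at −0.67 (called), and without Alb in the total at −0.12, −0.27 and −0.39. Apoh was at −0.083 with upper-quartile factors and −0.016 with 10 or more counts required in every library. From 8 to 16 dpc with AAV8-null and total counts, Rbp4 was at −0.082 and Apoh at −0.56 (called), or −0.27 without Alb. With AAV8-p21 Ambp was at −0.44 and Apoh at −0.39, or −0.29 and −0.24 without Alb. Leaving out 1 library at a time gave −0.18 to 0.021 for Rbp4, −0.067 to 0.72 for Serpina7, −0.036 to 0.47 for Ambp and −0.11 to 0.13 for Apoh from NP to 16 dpc, and −0.23 to 0.19 for Ambp from 8 to 16 dpc with AAV8-null. Over all genes, total counts raised the calls from 794 (451 higher) to 6147 (233 higher) for NP to 16 dpc, from 836 (385) to 6504 (190) for 8 to 16 dpc with AAV8-null and from 404 (254) to 4317 (179) with AAV8-p21. Leaving out 1 library gave 373 (without NP library 2) to 734, 258 (without 8 dpc library 2) to 1279 (without 8 dpc library 3) and 159 (without 8 dpc library 1) to 464 calls. DESeq2 on all 15 libraries called 1207, 1362 and 802, and 135 against 9 for AAV8-p21 against AAV8-null at 16 dpc. The replicate block, fitted to the 12 libraries with numbers from the labels, called 4 of the 10 genes from NP to 16 dpc and 3 from 8 to 16 dpc with AAV8-null, as did the same libraries without the block (an alternative chosen after seeing the data), and 657 against 739 and 655 against 754 of all genes. It changed no call of the 10 genes. A 2-fold change was seldom recovered in simulated counts (19%), so for genes at large such differences were often below what 3 livers per group can show. The changed genes were drawn at random, so this share does not give the recovery for the 10 genes.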

Other observations

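Among the genes whose profile over the libraries was most like that of Alb, Dnah11 and Slc24a3 were close to absent outside 16 dpc, and Slc6a9, Cp and F2 were not. Dnah11, which encodes an axonemal dynein chain, was at 0.277 to 0.699 CPM in NP mice, at 0.119 to 0.312 CPM at 8 dpc and at 41.9 to 112.9 CPM at 16 dpc with AAV8-null, and at 17.7 to 24.8 CPM at 16 dpc with AAV8-p21. Slc6a9, a glycine transporter gene, was at 19.8 ± 1.31 CPM in NP mice (SD, n = 3) and at 300.7 ± 140 CPM at 16 dpc with AAV8-null. Slc24a3, a sodium-calcium exchanger gene, went from 0.566 ± 0.310 CPM to 6.38 ± 1.51 CPM between the same groups. These genes were picked for their likeness to Alb, so their levels are a description.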
